A study of Mus musculus with 6 samples.

Results

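The unfolded protein response is described here through 10 of its genes, Ern1, Atf6, Xbp1, Hspa5, Hyou1, Dnajb9, Sdf2l1, Herpud1, Manf and Creld2. They were chosen by name, and each stood on 1 row among the 54532 genes of the deposited table. Hearts of mice aged 4 days gave polyadenylated RNA for sequencing, in 3 hearts labelled Wtap-CKO, a conditional knockout of Wtap, and in 3 hearts labelled Wtapflox/flox, called Wtap-flox, which by their label carry the floxed allele. WTAP is a subunit of the complex that writes N6-methyladenosine on messenger RNA. The series asks what WTAP does in heart development. The sources used here give neither the Cre driver nor the deleted exons.

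Libraries held between 15649028 and 18045599 reads or read pairs assigned to genes, and values are FPKM, which divides read counts by the length of the gene and the depth of the library. The summed FPKM of all genes was higher in each Wtap-CKO library (357870 to 388328) than in any Wtap-flox library (315632 to 339917). The main test did not rescale for this. Wtap itself had 9.32, 7.75 and 9.46 FPKM in Wtap-CKO hearts, against 7.77, 8.74 and 10.9 FPKM in Wtap-flox hearts. The whole-gene value thus overlapped between the groups and does not check the labels, on which every direction below rests. All 9 cardiomyocyte markers were measured, and their summed level was 8119 to 9923 FPKM in Wtap-CKO hearts and 8549 to 10385 FPKM in Wtap-flox hearts. Of the 9, Ryr2, the calcium release channel, fell, with 19.7 ± 5.18 FPKM in Wtap-CKO hearts and 39.7 ± 10.3 FPKM in Wtap-flox hearts (SD, n = 3 each; limma log2 fold change -0.97, adjusted p = 0.0233). Of these 9 markers 2 had log2 fold changes above 0, and the median was -0.22. By limma-voom on recovered reads 2 of the 9 were called lower and 0 higher, against 8.46% and 11.7% of all tested genes. Wtap-CKO 3 stood apart from the other Wtap-CKO libraries on the second principal component, which held 20.4% of the variance.

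As background, unfolded protein in the lumen of the endoplasmic reticulum draws the chaperone BiP away from membrane sensors. The sensor IRE1 then splices Xbp1 mRNA, ATF6 is cut to release a transcription factor, and PERK slows translation and favours ATF4. The resulting factors raise chaperones, degradation genes and secretory machinery. In cardiomyocytes the same membrane system is continuous with the sarcoplasmic reticulum, which stores calcium.

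Members were chosen by name, and no element searched was in every member window. Both the members and the elements were picked as parts of this response, so the shares below are no independent result. RefSeq promoter windows of GRCm38.p6, 250 bases before to 50 after the start, were found for 7 members (Ern1, Xbp1, Hspa5, Dnajb9, Sdf2l1, Herpud1 and Creld2). The remaining members are Atf6, Hyou1 and Manf. The reticulum stress element ERSE, searched on both strands as CCAAT and CCACG with any 9 bases between them, was in the windows of Hspa5 and Creld2 and in 39 of all 32851 windows (0.119%). Its variant ERSE-II, searched as ATTGG and CCACG with any 1 base between them, was in that of Herpud1 and in 12 of all windows (0.0365%). The windows with an element are shown because their genes stood at different points of the comparison, with fold changes above 0 for Hspa5 and Creld2 and below 0 for Herpud1. Capitals mark ERSE and the letters TGACGTG in Hspa5, ERSE in Creld2, where it lies on the opposite strand, and TTGCATCA and then ERSE-II in Herpud1.
Hspa5: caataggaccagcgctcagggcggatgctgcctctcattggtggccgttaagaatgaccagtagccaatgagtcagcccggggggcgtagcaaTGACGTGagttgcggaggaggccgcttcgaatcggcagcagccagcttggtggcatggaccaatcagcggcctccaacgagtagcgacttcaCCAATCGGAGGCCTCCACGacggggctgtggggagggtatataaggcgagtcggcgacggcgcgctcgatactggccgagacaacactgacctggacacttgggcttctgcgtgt
Creld2: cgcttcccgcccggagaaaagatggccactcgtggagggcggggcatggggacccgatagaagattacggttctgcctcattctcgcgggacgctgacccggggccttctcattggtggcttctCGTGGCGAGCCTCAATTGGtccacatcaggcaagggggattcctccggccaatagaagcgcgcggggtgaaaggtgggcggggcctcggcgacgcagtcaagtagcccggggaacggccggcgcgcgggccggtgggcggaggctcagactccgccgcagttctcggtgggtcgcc
Herpud1: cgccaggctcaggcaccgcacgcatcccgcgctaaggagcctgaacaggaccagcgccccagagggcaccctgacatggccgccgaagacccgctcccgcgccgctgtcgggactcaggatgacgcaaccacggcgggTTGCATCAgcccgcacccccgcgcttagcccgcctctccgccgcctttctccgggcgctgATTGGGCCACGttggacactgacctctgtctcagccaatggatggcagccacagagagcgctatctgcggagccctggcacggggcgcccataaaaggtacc

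These windows lie at chr2:34771840-34772139, chr15:88819396-88819695 and chr8:94386179-94386478 of GRCm38.p6, all on the plus strand. The ERSE of Hspa5 began 65 bases before the start and the ERSE-II of Herpud1 began 52 bases before it. TTGCATCA, the C/EBP-ATF element read by ATF4, was in 0.895% of all windows. TGACGTG was in 2.01%. The longer UPRE core TGACGTGG, which contains TGACGTG, was in none of the 7 member windows and in 0.676% of all. The half-sites CCACG and CCAAT, which also lie inside ERSE, were in 6 and 5 of the 7 member windows and in 32.8% and 37.4% of all windows. The Xbp1 window held none of the letters searched. These are matches of letters and no measure of binding.

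In Wtap-CKO hearts the members did not share a direction. Of the 10, all tested, Xbp1 and Manf rose, Herpud1 fell and 7 did not pass (limma across 12568 genes, Benjamini-Hochberg adjusted p below 0.05). Of all tested genes 9.91% were called higher and 6.69% lower, 16.6% in all, against 20%, 10% and 30% of the members. The 3 values of each group lay apart in 4 members, 3 higher and 1 lower, and in 37.1% of all tested genes (19.8% higher and 17.3% lower). The median log2 fold change was 0.16 over the members and 0.00292 over all tested genes. In whole hearts, fewer cells of a type and less RNA per cell cannot be told apart.

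**Figure D1:**
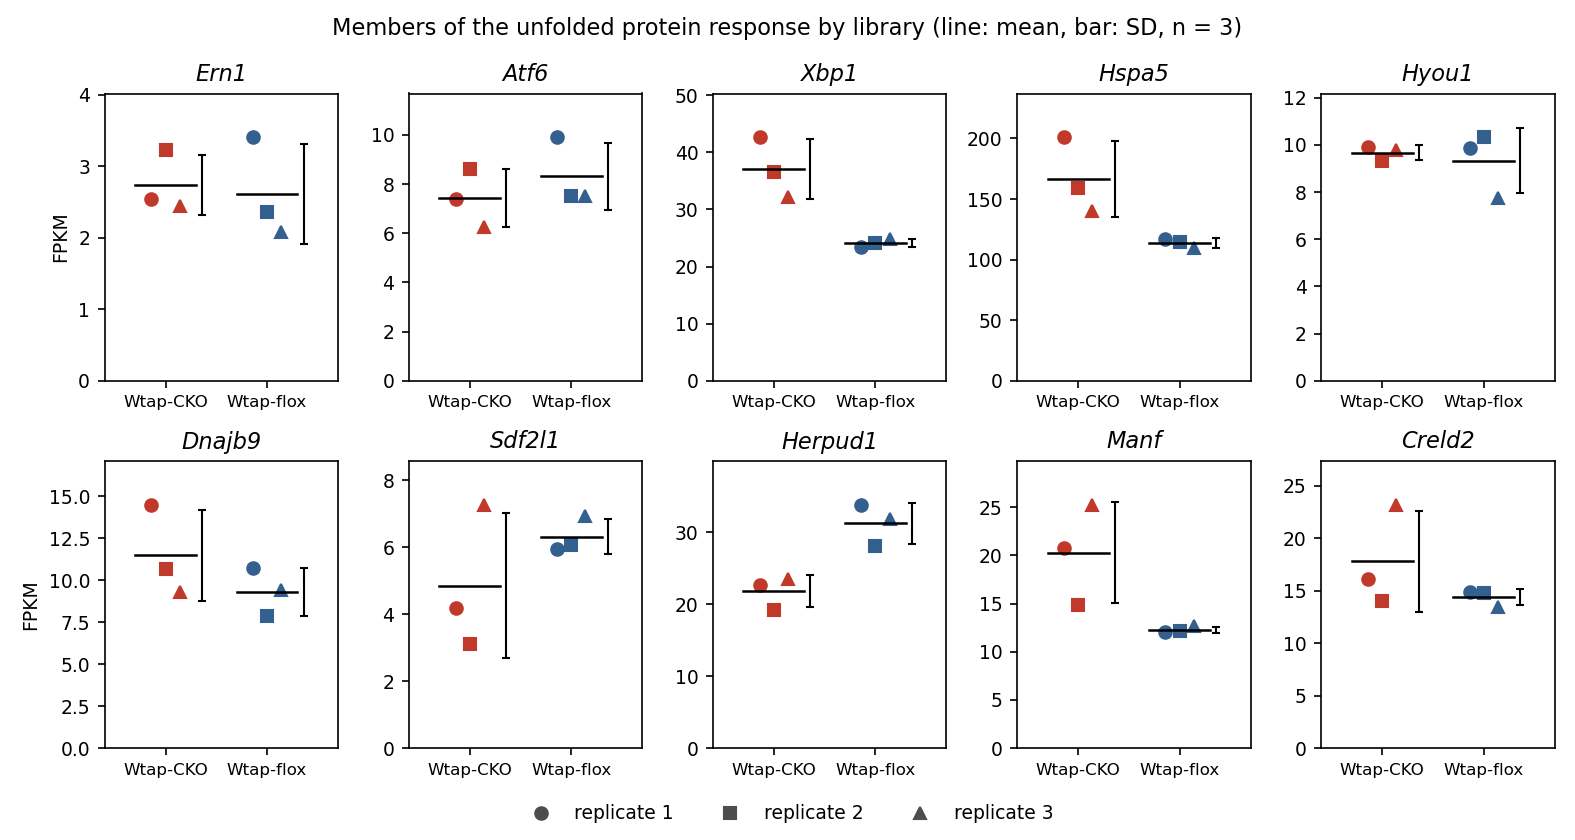
FPKM of the 10 members in each library (vertical axes, starting at 0, in FPKM), with Wtap-CKO left of Wtap-flox, symbols for replicates, a line for the mean and a bar for the SD (n = 3). Xbp1, Hspa5 and Manf lie wholly higher and Herpud1 wholly lower in Wtap-CKO, while the other 6 members overlap between the groups.

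Neither sensor passed. Ern1 encodes the kinase and endonuclease IRE1 (ENSMUSG00000020715, chromosome 11, 106394650 to 106487852, minus strand, in the deposited coordinates, which are those of GRCm38). It had 2.55, 3.22 and 2.45 FPKM in Wtap-CKO hearts, against 3.40, 2.36 and 2.08 FPKM in Wtap-flox hearts. The highest single value was in a Wtap-flox heart, and the groups overlapped (log2 fold change 0.061, 95% interval -0.30 to 0.43, limma adjusted p = 0.827). Its sign turned with upper-quartile or TPM scaling and without Wtap-flox 3 or Wtap-CKO 2. These levels rest on 301 to 485 reads per library.

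Atf6 encodes a transcription factor anchored in the reticulum membrane (ENSMUSG00000026663, chromosome 1, 170704674 to 170867771). It had 7.39, 8.63 and 6.26 FPKM in Wtap-CKO hearts, against 9.90, 7.50 and 7.52 FPKM in Wtap-flox hearts. The groups overlapped, with the lowest value in Wtap-CKO and the highest in Wtap-flox (log2 fold change -0.14, 95% interval -0.49 to 0.20, limma adjusted p = 0.564). Leaving out 1 library moved it to -0.041 (Wtap-CKO 3), -0.24 (Wtap-CKO 2) or -0.024 (Wtap-flox 1). The intervals of both sensors span 0 widely, so the values do not show equal levels.

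Xbp1 rose in Wtap-CKO hearts. It encodes the bZIP factor whose mRNA is spliced by IRE1 (ENSMUSG00000020484, chromosome 11, 5520659 to 5525893), and its whole-gene FPKM does not tell the spliced from the unspliced form. It had 42.7, 36.6 and 32.1 FPKM in Wtap-CKO hearts, against 23.4, 24.2 and 24.9 FPKM in Wtap-flox hearts. All 3 Wtap-CKO values lay above all Wtap-flox values, whose spread was narrow. The ratio of the means was 1.54 and the log2 fold change 0.59 (SE 0.135, 95% interval 0.28 to 0.90, limma adjusted p = 0.0194), while the exact two-sided permutation test gave p = 0.1, the smallest that 3 against 3 allows. The call was lost with TPM scaling (log2 fold change 0.43, adjusted p = 0.0657) and without Wtap-CKO 1 or any single Wtap-flox library (adjusted p = 0.0532 to 0.0774). TPM scaling moved the median of all genes to -0.14, and relative to that median Xbp1 stood at 0.56.

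Hspa5, the gene of the chaperone BiP and the most abundant member, did not pass in the main test although its groups lay apart. It is on chromosome 2, 34771970 to 34777547 (ENSMUSG00000026864), and its promoter window is the one with ERSE and TGACGTG shown above. It had 201, 159 and 140.1 FPKM in Wtap-CKO hearts, against 117, 114 and 109.5 FPKM in Wtap-flox hearts. Every Wtap-CKO value was above every Wtap-flox value, and Wtap-CKO 1 was the highest. The ratio of the means was 1.47 and the log2 fold change 0.53 (SE 0.167, 95% interval 0.15 to 0.91, limma adjusted p = 0.0603; exact two-sided permutation p = 0.1). It passed by limma-voom on recovered reads (adjusted p = 0.0313), by limma without the variance trend (adjusted p = 0.0425) and without Wtap-CKO 3 (log2 fold change 0.65, adjusted p = 0.0258), while quantile normalization gave 0.32 (adjusted p = 0.26) and the fit without Wtap-CKO 1 gave 0.39 (adjusted p = 0.217). Hspa5 held 58.8%, 57.0% and 50.2% of the summed FPKM of the members in Wtap-CKO hearts and 48.6%, 50.2% and 48.5% in Wtap-flox hearts.

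Hyou1, which encodes the large chaperone GRP170 that exchanges the nucleotide of BiP, did not pass (ENSMUSG00000032115, chromosome 9, 44379490 to 44392369). It had 9.91, 9.30 and 9.78 FPKM in Wtap-CKO hearts, against 9.89, 10.3 and 7.75 FPKM in Wtap-flox hearts. The Wtap-CKO values fell inside the Wtap-flox range (log2 fold change 0.056, 95% interval -0.24 to 0.35, limma adjusted p = 0.804). Its sign turned with upper-quartile and TPM scaling and without Wtap-flox 3. The ratio of Hspa5 to Hyou1, a pair picked after their values were seen, was 20.3, 17.1 and 14.3 in Wtap-CKO hearts and 11.9, 11.1 and 14.1 in Wtap-flox hearts (exact two-sided permutation test of the log2 ratio, p = 0.1).

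The co-chaperones had fold changes of opposite sign and neither passed. Dnajb9 encodes ERdj4, a J-protein that brings BiP to IRE1 (ENSMUSG00000014905, chromosome 12, 44205559 to 44210326). It had 14.5, 10.7 and 9.30 FPKM in Wtap-CKO hearts, against 10.7, 7.85 and 9.43 FPKM in Wtap-flox hearts. Only Wtap-CKO 1 lay clear of the Wtap-flox range (log2 fold change 0.26, 95% interval -0.13 to 0.66, limma adjusted p = 0.344). The value was 0.095 without Wtap-CKO 1, 0.15 without Wtap-flox 2 and 0.11 with TPM scaling.

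Sdf2l1, a lumenal partner of the J-protein ERdj3, was the member with the fewest reads, 53 to 142 per library (ENSMUSG00000022769, chromosome 16, 17130138 to 17132383). It had 4.19, 3.10 and 7.27 FPKM in Wtap-CKO hearts, against 5.95, 6.08 and 6.93 FPKM in Wtap-flox hearts. Wtap-CKO 1 and 2 were below every Wtap-flox heart and Wtap-CKO 3 was above them all (log2 fold change -0.38, 95% interval -0.93 to 0.16, limma adjusted p = 0.309). Without Wtap-CKO 3 it fell (log2 fold change -0.66, adjusted p = 0.0198), and without Wtap-CKO 2 the value was -0.16.

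Herpud1 fell in Wtap-CKO hearts. It encodes a ubiquitin-like membrane protein of the complex that degrades misfolded reticulum proteins (ENSMUSG00000031770, chromosome 8, 94386438 to 94395377), and its window carries ERSE-II and TTGCATCA. It had 22.7, 19.3 and 23.5 FPKM in Wtap-CKO hearts, against 33.8, 28.1 and 31.8 FPKM in Wtap-flox hearts. All 3 Wtap-CKO values lay below all Wtap-flox values, with a ratio of the means of 0.698 (log2 fold change -0.50, SE 0.132, 95% interval -0.80 to -0.20, limma adjusted p = 0.0336; exact two-sided permutation p = 0.1). TPM scaling kept the call (log2 fold change -0.66, adjusted p = 0.00999), and it was lost without any single library other than Wtap-CKO 3 (adjusted p = 0.0614 to 0.106). Relative to the median of all genes, which TPM scaling moved to -0.14, Herpud1 stood at -0.53 with that scaling and -0.50 in the main fit. The antisense gene Gm15890 in the same locus had at most 0.224 FPKM in any library.

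The distance between Hspa5 and Herpud1, also picked after their values were seen, was wide. Their FPKM ratio was 8.86, 8.25 and 5.96 in Wtap-CKO hearts and 3.47, 4.06 and 3.45 in Wtap-flox hearts. The ratios did not overlap and differed by 1.06 on the log2 scale (exact two-sided permutation p = 0.1). That separation and its p were fixed in advance, as Hspa5 lay wholly higher and Herpud1 wholly lower in Wtap-CKO hearts. They add nothing to the results of each gene.

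Manf rose in Wtap-CKO hearts. It encodes a small reticulum protein that is also secreted and acts as a neurotrophic factor (ENSMUSG00000032575, chromosome 9, 106838312 to 106891979). It had 20.8, 14.9 and 25.3 FPKM in Wtap-CKO hearts, against 12.0, 12.1 and 12.7 FPKM in Wtap-flox hearts. The groups lay apart, and the Wtap-CKO values spread more widely, with an SD of 5.21 FPKM in Wtap-CKO and 0.335 FPKM in Wtap-flox. The ratio of the means was 1.65 and the log2 fold change 0.65 (SE 0.177, 95% interval 0.25 to 1.05, limma adjusted p = 0.0371; exact two-sided permutation p = 0.1). The call was lost without any single library other than Wtap-CKO 2 (adjusted p = 0.0645 to 0.108), with upper-quartile scaling (adjusted p = 0.0505) and with TPM scaling (adjusted p = 0.0594). The Manf locus in the file overlaps Rbm15b on the same strand and Dcaf1 on the other, which had log2 fold changes of -0.07 and -0.11 and did not pass.

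Creld2, an EGF-repeat protein of the reticulum that binds other secretory proteins, had 16.1, 14.03 and 23.2 FPKM in Wtap-CKO hearts, against 14.8, 14.8 and 13.5 FPKM in Wtap-flox hearts (ENSMUSG00000023272, chromosome 15, 88819646 to 88826683). Wtap-CKO 3 was far above the rest, and Wtap-CKO 2 lay inside the Wtap-flox range. The log2 fold change was 0.26 (95% interval -0.13 to 0.66, limma adjusted p = 0.343), 0.41 without Wtap-CKO 2, 0.065 without Wtap-CKO 3 and 0.10 with TPM scaling. Its window holds the same kind of ERSE as that of Hspa5.

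**Figure D2:**
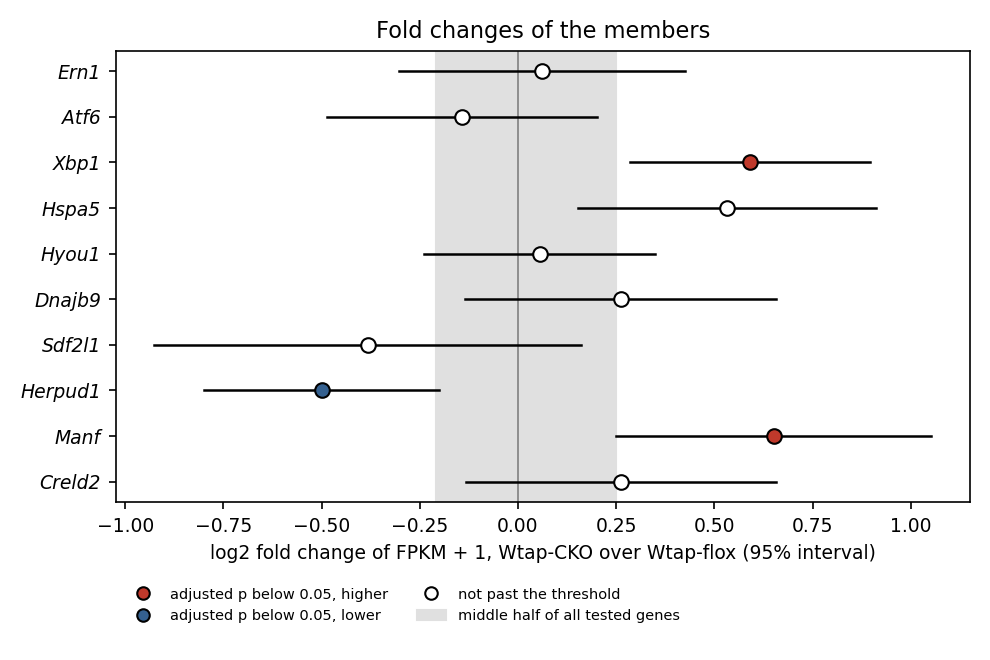
Log2 fold change of FPKM + 1, Wtap-CKO over Wtap-flox (horizontal axis), for each member, with its 95% interval from limma as a line and the interquartile range of all tested genes, -0.21 to 0.25, as a grey band. Xbp1 at 0.59 and Manf at 0.65 passed upward and Herpud1 at -0.50 downward, and the interval of Hspa5 lies above 0 without passing after adjustment.

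Among the Wtap-CKO hearts the members differed in which library was highest. It was Wtap-CKO 1 for Xbp1, Hspa5, Hyou1 and Dnajb9, Wtap-CKO 2 for Ern1 and Atf6, and Wtap-CKO 3 for Manf, Creld2, Sdf2l1 and Herpud1. The members highest in Wtap-CKO 3 had gene lengths of 1108 to 3524 bases. Those highest in Wtap-CKO 1 had 2549 to 7230 bases, and Ern1 and Atf6 had 8173 and 9231. The part of gene length in these differences was not tested. Against the Wtap-flox mean of log2(FPKM + 1), Hspa5 deviated by 0.82, 0.48 and 0.30 in Wtap-CKO 1, 2 and 3. Creld2 deviated by 0.16, -0.03 and 0.66 in the same libraries. Markers of other cells also differed in Wtap-CKO 3. The 5 neutrophil and monocyte markers summed to 12.2, 8.996 and 73.5 FPKM in Wtap-CKO 1, 2 and 3, against 5.07 to 8.61 FPKM in Wtap-flox hearts. In Wtap-CKO 3 most of the sum was S100a8 (25.9 FPKM) and S100a9 (44.9 FPKM), while Csf3r stood at 1.52 FPKM, and Ly6c2 and Ccr2 were under 1 FPKM in all 6 libraries. The 7 macrophage markers summed to 46.1 to 71.7 FPKM in Wtap-CKO hearts and 30.5 to 35.3 FPKM in Wtap-flox hearts, and 3 of the 6 tested rose (C1qa, C1qb and Mrc1). Endothelial markers summed to 225 to 241 FPKM in Wtap-CKO hearts and 229.9 to 257 FPKM in Wtap-flox hearts, smooth muscle and pericyte markers to 725 to 952 FPKM in Wtap-CKO hearts and 516 to 762 FPKM in Wtap-flox hearts, and erythroid markers to 1142 to 1948 FPKM in Wtap-CKO hearts and 602 to 2076 FPKM in Wtap-flox hearts. Among the endothelial markers Emcn rose (0.87, limma adjusted p = 0.00704) and Kdr fell (-0.43, limma adjusted p = 0.0497). Of 5 tested markers of smooth muscle and pericytes Cnn1 rose (1.11, limma adjusted p = 0.0133) and 0 fell, while limma-voom called 1 higher and 1 lower. Of these 5 markers 2 had log2 fold changes above 0, and the median was -0.11. Rgs5 had -0.46 and did not pass (limma adjusted p = 0.0693). All 5 markers of thymus and other mediastinal tissue were under 1 FPKM in every library. The part of other cells in the values of the members was not tested. Without Wtap-CKO 3, Manf had a log2 fold change of 0.49 and Creld2 of 0.065, and of the 10 members 2 rose (Xbp1 and Hspa5) and 2 fell (Herpud1 and Sdf2l1). In the same fit 15 of 104 other tested genes of the response rose and 2 fell, and over all tested genes 9.46% were called higher and 6.6% lower.

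**Figure D3:**
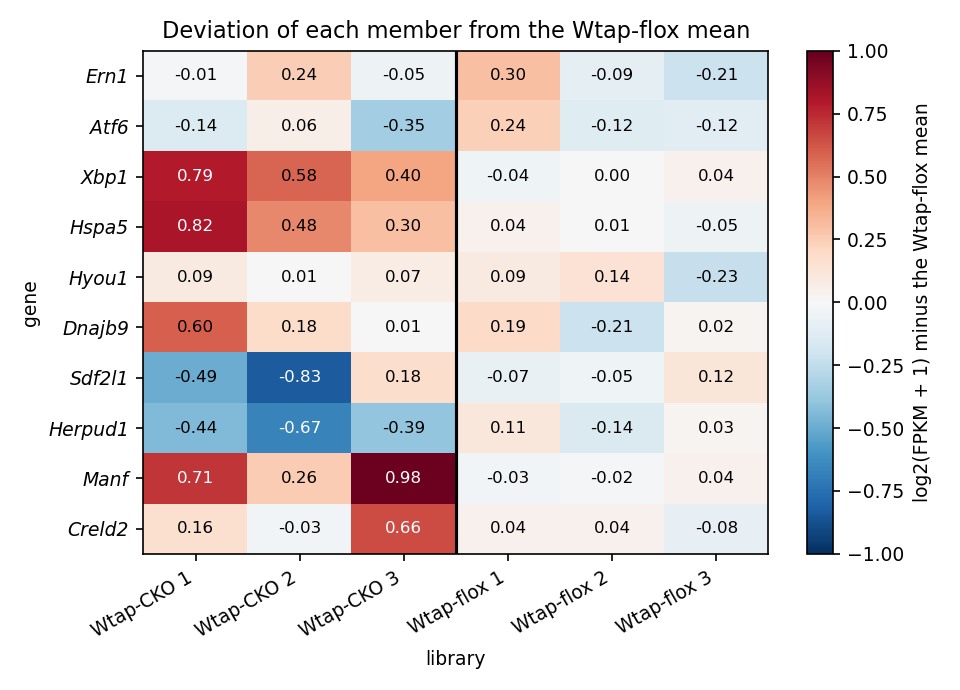
Deviation of log2(FPKM + 1) from the Wtap-flox mean (colour and printed number) for each member (rows) in each library (columns, Wtap-CKO left). Wtap-CKO 1 holds the largest deviations of Xbp1 (0.79) and Hspa5 (0.82), and Wtap-CKO 3 those of Manf (0.98) and Creld2 (0.66).

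Xbp1 and Hspa5 had similar deviations over the 6 libraries, with the same order among the Wtap-CKO hearts. Among the Wtap-flox hearts, where both spreads were narrow, their order was opposite. There Hspa5 was highest in Wtap-flox 1 and Xbp1 in Wtap-flox 3. By the root mean square difference of log2(FPKM + 1) deviations, Xbp1 was the fourth nearest of 11152 protein coding genes to Hspa5, at 0.0722. The others among the nearest were Snx24 (0.0385), Agtrap (0.0695), Gsg1l (0.0695) and Fstl1 (0.0728). Dnajb9 came next among the members, at rank 487, and Manf stood at rank 3437. Nearest to Xbp1 were Casq2 (0.0363), the calcium-binding calsequestrin of the cardiac sarcoplasmic reticulum, Grn (0.0423), Polr1e (0.0458), Alcam (0.0559) and Thumpd3 (0.0574), and Hspa5 stood at rank 11. Casq2 had 590, 541 and 457 FPKM in Wtap-CKO hearts, against 334, 360 and 349 FPKM in Wtap-flox hearts. These distances describe 6 libraries in 2 groups and were given no test.

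Of 105 other tested genes of the response, 13 rose and 1 fell in Wtap-CKO hearts, 12.4% and 0.952%, against 9.91% and 6.69% of all tested genes. A further 8 listed genes were under the filter of a mean of 1 FPKM. The median log2 fold change of the 105 was 0.19, and 78 of them were above 0, 74.3% against 50.4% of all tested genes. That comparison was not matched for level. Of the 105, 91 averaged at least 5 FPKM, as did 7391 of all 12568 tested genes. Those 7391 had a median of 0.046, and 67.8% of their calls were higher. With TPM scaling 8 of the 105 rose and 3 fell, and the median of all tested genes was -0.14. For the counts by other rules given with the lists, 31.6% of all tested genes had an unadjusted p below 0.05, and limma-voom called 11.7% higher and 8.46% lower.

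Among 22 other lumenal chaperones and oxidative foldases, 3 rose and 0 fell (8 had an unadjusted p below 0.05 in limma, and limma-voom called 4 higher and 0 lower), with a median of 0.29. Txndc5, a disulfide isomerase, averaged 54.1 ± 4.601 FPKM in Wtap-CKO hearts and 26.5 ± 1.58 FPKM in Wtap-flox hearts (SD, n = 3 each; log2 fold change 0.999, limma adjusted p = 0.00174). Its locus overlaps Bmp6 on the other strand, which had a log2 fold change of 1.14, and the sources used here do not say whether counting used strand, so their reads may not be separate. Sil1, which like Hyou1 exchanges the nucleotide of BiP, averaged 13.1 ± 1.83 FPKM in Wtap-CKO hearts and 7.76 ± 0.606 FPKM in Wtap-flox hearts (0.68, limma adjusted p = 0.00968). P4hb, the classic protein disulfide isomerase, averaged 199 ± 30.6 FPKM in Wtap-CKO hearts and 126 ± 10.53 FPKM in Wtap-flox hearts (0.65, limma adjusted p = 0.0276). The P4hb call was lost without any single library other than Wtap-CKO 2 and Wtap-CKO 3, (adjusted p = 0.0709 to 0.115), with TPM scaling (adjusted p = 0.0554), with quantile normalization (adjusted p = 0.0728) and under the replicate block (adjusted p = 0.0589). Dnajc10, a reductase with a J domain, had -0.11 and did not pass. Txndc5 and Sil1 passed under all 18 alternatives.

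Among 18 other degradation genes 1 rose and 0 fell (1 with an unadjusted p below 0.05 in limma, 1 higher and 0 lower by limma-voom), with a median of 0.12. The gene that rose was Selenos, a selenoprotein of the retrotranslocation complex, at 20.5 ± 1.63 FPKM in Wtap-CKO hearts and 13.3 ± 1.95 FPKM in Wtap-flox hearts (SD, n = 3 each; log2 fold change 0.60, limma adjusted p = 0.0198). It missed the threshold without Wtap-CKO 1, Wtap-flox 1 or Wtap-flox 2 (adjusted p = 0.0518 to 0.0818) and with TPM scaling (adjusted p = 0.053). Vcp, the segregase that pulls substrates from the membrane, had -0.16 and did not pass.

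Among 12 genes of the PERK and ATF4 arm 2 rose and 0 fell, with a median of 0.43 (5 with an unadjusted p below 0.05 in limma, 3 higher and 0 lower by limma-voom). Ddit4, an inhibitor of mTORC1, averaged 41.4 ± 4.79 FPKM in Wtap-CKO hearts and 17.0 ± 1.24 FPKM in Wtap-flox hearts (SD, n = 3 each; log2 fold change 1.23, limma adjusted p = 0.000993). Ppp1r15a, the phosphatase subunit GADD34, averaged 11.5 ± 2.51 FPKM in Wtap-CKO hearts and 6.17 ± 1.67 FPKM in Wtap-flox hearts (0.80, limma adjusted p = 0.0262), a call lost without Wtap-CKO 2, Wtap-CKO 3, Wtap-flox 1 or Wtap-flox 3 (adjusted p = 0.0566 to 0.0898). Vldlr had -0.01 and did not pass. Outside the naming rule, Atf4 had 0.53 (limma adjusted p = 0.0505) and Ddit3, which encodes the death-linked factor CHOP, had 0.02 (limma adjusted p = 0.952).

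Among 23 genes of the translocon, signal peptidase and vesicle coat 2 rose and 0 fell, with a median of 0.29 (8 with an unadjusted p below 0.05 in limma, 2 higher and 0 lower by limma-voom). Kdelr3, a receptor that returns escaped lumenal proteins from the Golgi, averaged 41.7 ± 4.44 FPKM in Wtap-CKO hearts and 18.1 ± 2.72 FPKM in Wtap-flox hearts (SD, n = 3 each; log2 fold change 1.16, limma adjusted p = 0.0019). It passed under all 18 alternatives, and its locus overlaps Ddx17 on the other strand, which had -0.09. Ssr2, a translocon subunit, had 0.58 (limma adjusted p = 0.046), a call lost without any single library other than Wtap-CKO 2 (adjusted p = 0.0814 to 0.131), with upper-quartile, TPM and quantile scaling (adjusted p = 0.0595 to 0.0809), without robust moderation (adjusted p = 0.0525) and under the replicate block (adjusted p = 0.0636). Srpr, the receptor of the signal recognition particle, had -0.09 and did not pass.

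Among 10 other sensors and activators 1 fell and 0 rose, with a median of -0.15 (3 with an unadjusted p below 0.05 in limma, 1 lower and 0 higher by limma-voom). Map3k5, the kinase ASK1 that acts below IRE1, averaged 5.85 ± 1.14 FPKM in Wtap-CKO hearts and 8.46 ± 0.482 FPKM in Wtap-flox hearts (SD, n = 3 each; log2 fold change -0.48, limma adjusted p = 0.0482). That call was lost without any single library other than Wtap-CKO 2 (adjusted p = 0.0847 to 0.158), without the variance trend (adjusted p = 0.0537), without robust moderation (adjusted p = 0.0514) and under the replicate block (adjusted p = 0.0748). Mbtps2, the protease that completes the cut of ATF6, had 0.35 and did not pass, but passed without Wtap-CKO 3 (0.45, adjusted p = 0.0495).

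Creb3, a Golgi-cleaved relative of ATF6, rose as 1 of 3 tested CREB3 family genes, with 21.2 ± 1.82 FPKM in Wtap-CKO hearts and 10.9 ± 1.196 FPKM in Wtap-flox hearts (SD, n = 3 each; log2 fold change 0.91, limma adjusted p = 0.00256). It overlaps Tln1 and Gba2 on the other strand, at 0.48 and 0.04, neither of which passed. Of 5 tested autophagy receptors of the reticulum 2 rose, Tex264 (0.74, limma adjusted p = 0.00441) and Retreg1 (0.68, limma adjusted p = 0.013), and 0 fell, Retreg1 missing the threshold without Wtap-CKO 1 (adjusted p = 0.054), while Calcoco1 had -0.49 and did not pass, with -0.29 without Wtap-flox 1. Of 7 death genes of reticulum stress Bak1 (0.54, limma adjusted p = 0.0325) and Bax (0.65, limma adjusted p = 0.0409) rose and 0 fell, while the BH3-only gene Bcl2l11 had -0.70 and did not pass (limma adjusted p = 0.0766). Bcl2l11 passed by limma-voom (-0.84, adjusted p = 0.0421) and without Wtap-flox 2 (-0.95, adjusted p = 0.0198), and had -0.44 without Wtap-flox 1. The calls of Bak1 and Bax were both lost with TPM scaling (adjusted p = 0.0748 for Bak1 and 0.0597 for Bax) and with quantile normalization (adjusted p = 0.0523 for Bak1 and 0.0577 for Bax). They were also lost without any single library other than Wtap-CKO 2 and Wtap-flox 2 for Bak1 (adjusted p = 0.0621 to 0.104) and without any other than Wtap-CKO 2 and Wtap-CKO 3 for Bax (adjusted p = 0.0771 to 0.119), under the replicate block for Bak1 (adjusted p = 0.0582), and with upper-quartile scaling (adjusted p = 0.0548) and without robust moderation (adjusted p = 0.0507) for Bax. Bak1 overlaps Ggnbp1 on the other strand, which fell (-0.66, limma adjusted p = 0.0337). Of 5 tested substrates of IRE1-dependent decay 0 passed in either direction in limma, 2 had an unadjusted p below 0.05 and limma-voom called 0, with a median of -0.037. Those 2 had opposite signs, Sparc at 0.36 (limma adjusted p = 0.157) and Scara3 at -0.34 (limma adjusted p = 0.14), and the value of Sparc was 0.20 with TPM scaling and 0.061 with quantile normalization.

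**Figure D4:**
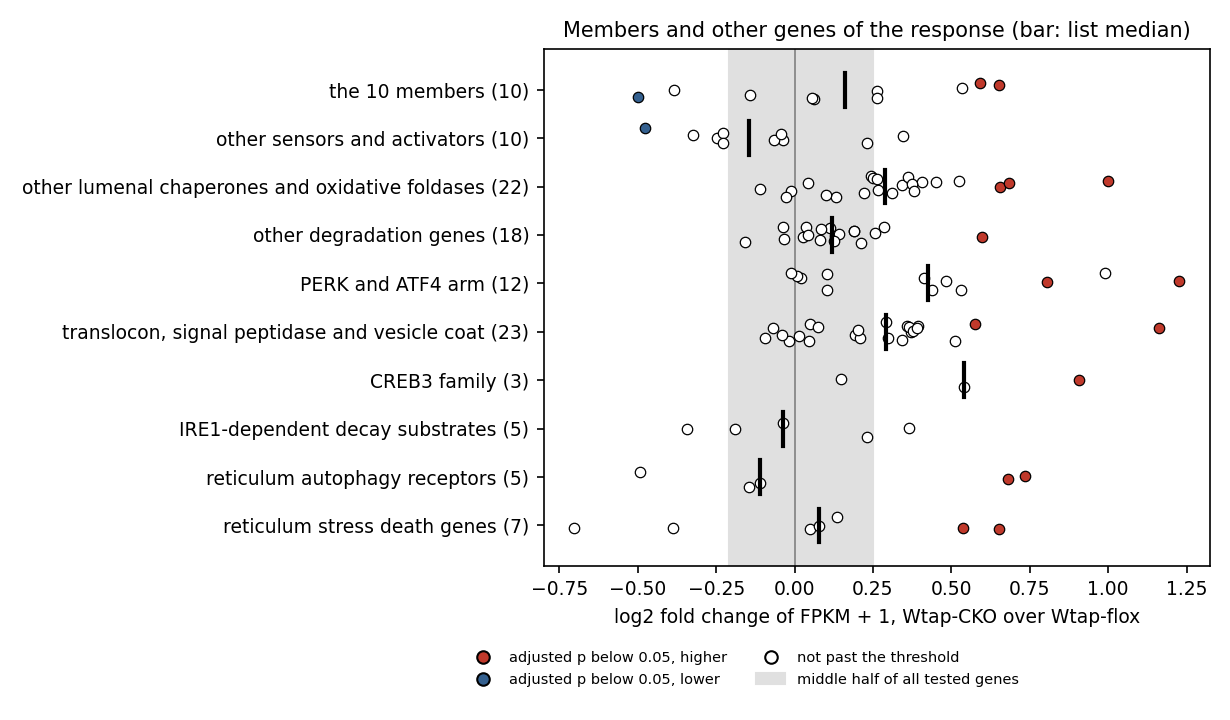
Log2 fold change of FPKM + 1, Wtap-CKO over Wtap-flox (horizontal axis), for the 10 members and for 9 lists of other genes of the response (rows, with the number tested), as points spread vertically for sight, with a bar for each median and a grey band for the interquartile range of all tested genes. Medians run from -0.15 for the other sensors to 0.54 for the CREB3 family, and the calls outside the members are upward except for Map3k5.

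Client load and heat shock genes gave the surroundings of these values. Of 10 collagen genes, whose products fold in the reticulum, 1 rose and 0 fell in limma (4 with an unadjusted p below 0.05, and 1 higher and 1 lower by limma-voom), with a median of 0.04. Col8a1 averaged 7.19 ± 2.88 FPKM in Wtap-CKO hearts and 1.31 ± 0.0845 FPKM in Wtap-flox hearts (SD, n = 3 each; log2 fold change 1.77, limma adjusted p = 0.00214), and Col15a1 had -0.57 (limma adjusted p = 0.0673). Col15a1 passed as lower by limma-voom (adjusted p = 0.0342), with upper-quartile (adjusted p = 0.0469) and TPM scaling (adjusted p = 0.0346), and without Wtap-CKO 2 or Wtap-flox 3 (adjusted p = 0.0406 and 0.0418). The 7 fibroblast markers summed to 320 to 453 FPKM in Wtap-CKO hearts and 407 to 458 FPKM in Wtap-flox hearts, and of them Lum (-1.02, limma adjusted p = 0.00468) and Dcn (-0.60, limma adjusted p = 0.0336) fell. Of the 7 markers 3 were above 0 and did not pass, Tcf21 and Mfap5 at 0.21 and Col1a1 at 0.011. The 12 heat shock genes listed were cytosolic apart from the mitochondrial Hspd1 and Hspe1. Of the 12, 3 rose and 0 fell (8 with an unadjusted p below 0.05 in limma, and 5 higher and 0 lower by limma-voom), with a median of 0.37. They were Hspb1 (1.33, limma adjusted p = 0.00723) and the near-identical pair Hspa1a (1.25, limma adjusted p = 0.01) and Hspa1b (1.29, limma adjusted p = 0.0107), whose reads the counting may have split. The value of Hspa1a was 1.90 with a pseudocount of 0.1 and 2.04 by limma-voom. Bag3 had -0.03 and did not pass.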

How the data were processed

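The authors deposited FPKM values for 54532 genes, 1 column per library, from HISAT2 2.0.5 and featureCounts 1.5.0-p3 per the submitters' processing notes. Messenger RNA was selected with poly-T beads, per the labels' protocols. Multiplied by gene length, 100% of values were whole multiples of a single step in their library, within 0.01 of a step, which gave the reads used for limma-voom. The notes name GRCm39, but 94.9% of coding genes lay within 1000 bases of GRCm38.p6 and 3.36% of GRCm39.

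Genes that averaged 1 FPKM or more were tested by limma 3.58.1 in R 4.3.3 on log2(FPKM + 1), with trend and robust moderation, Benjamini-Hochberg at 0.05. The pseudocount understates changes of low genes. Fold changes are Wtap-CKO over Wtap-flox. Exact permutation tests used scipy 1.17.1. The code of the fit was also run on simulated counts with known changes. Those counts held no outlying library, so that run does not back the calls made here. The submitters call the hearts of a group independent biological replicates.

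The members, lists, ratios and motifs were chosen with earlier results of these data known. Of 205 list entries, 203 matched a symbol in the file and 2 matched by their older name. Besides all members, the text names up to 4 called genes per list by adjusted p and the largest in the opposite direction, and the 5 genes nearest to Hspa5 and to Xbp1. Genes named outside this rule were chosen after their values were seen. Alternatives were other pseudocounts, filters, scalings and moderations, limma-voom, a replicate block, single libraries left out and a threshold of 0.01.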

Additional observations from a re-analysis of the deposited data

How the results depend on the processing

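Across the alternatives run for each, 18 in all, Atf6 (-0.29 to -0.024), Dnajb9 (0.095 to 0.39) and Creld2 (0.065 to 0.41) kept their direction and stayed outside the threshold, with values that moved by more than 1.5 times. Over all genes 2086 were called, 1206 without a filter, 785 at an adjusted p below 0.01 and 1189 to 2016 with a library left out. The share of calls that were higher was 59.7%, 45.3% with upper-quartile and 33.1% with TPM scaling. TPM scaling divides each library by its summed FPKM, which was higher in every Wtap-CKO library. Of the members 2 were higher, against 0 without a filter, with TPM scaling or at 0.01, 1 with upper-quartile scaling and 0 to 2 with a library left out. By limma-voom and without the variance trend Hspa5 was called higher beside Xbp1 and Manf. Of the members 1 was lower, against 0 without a filter, under the replicate block or at 0.01, and 0 to 2 with a library left out.

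Without a filter the adjusted p was 0.0567 for Xbp1 (log2 fold change 0.59), 0.0838 for Herpud1 (-0.50) and 0.111 for Manf (0.65), and at a threshold of 0.01 none of these passed. Of the list genes named as called, P4hb, Selenos, Ppp1r15a, Ssr2, Map3k5, Bak1 and Bax also missed the threshold without a filter (adjusted p = 0.0622 to 0.117). TPM scaling gave Xbp1 0.43, Manf 0.49, Ern1 -0.061 and Hyou1 -0.10. Upper-quartile scaling gave Manf 0.57, Ern1 -0.0043 and Hyou1 -0.025. Hspa5 passed without the trend (0.53) and by limma-voom (0.54). With a library left out the log2 fold change was 0.49 to 0.69 for Xbp1, 0.39 to 0.65 for Hspa5, 0.49 to 0.85 for Manf, -0.57 to -0.42 for Herpud1, -0.66 to -0.16 for Sdf2l1, -0.046 to 0.21 for Ern1 and -0.059 to 0.13 for Hyou1. It was -0.22 to 0.022 for Dnajc10, -0.12 to 0.093 for Vldlr and -0.080 to 0.076 for Bag3, the sign turning without Wtap-CKO 3 for Dnajc10, without Wtap-CKO 3 (0.093), Wtap-flox 1 (0.046) or Wtap-flox 2 (0.044) for Vldlr, and without Wtap-CKO 3 or Wtap-flox 2 (0.052) for Bag3. Of the 105 other genes of the response, 13 rose and 1 fell, against 6 to 16 and 0 to 3 across the alternatives. Fits with a library left out had fewer samples, and the fit without a filter tested more genes. The part of these and of other causes in the shifts was not tested.

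Same-numbered libraries did not deviate together (correlations -0.216, -0.0752 and -0.0764 across genes), and none of the 6 libraries correlated best with its own number. These correlations do not decide whether same-numbered libraries shared a batch. The replicate block gave 1673 calls and Herpud1 an adjusted p of 0.0511, and Xbp1 and Manf passed under it. P4hb, Ssr2, Bak1 and Map3k5 lost their calls under the block (adjusted p = 0.0582 to 0.0748).

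Sdf2l1 had the fewest reads of the members, at 53 to 142 per library. The part of depth in its spread was not tested.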
